A study of Mus musculus with 2 samples.

Results

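H19, Dlk1, Meg3, Peg3, Mest, Plagl1, Grb10, Ndn and Cdkn1c are 9 imprinted genes of the growth programme of the fetus and newborn, and their RNA was compared in newborn skin without and with the gene Pla2g4e. They were chosen as imprinted genes whose RNA declines after birth, so that the comparison asks whether the skins differed in a sign of developmental stage. All 9 were found by gene name on the array, through 19 of its 39422 probes outside the controls; the named probes stood for 24142 genes, of which 19305 were measured, that is, had a probe well above background on both arrays. The knockout group was Pla2g4e-/- skin and its control Pla2g4e+/+ (wild-type) skin, both from C57BL/6N mice on postnatal day 0. Each group was 1 array hybridised with equal amounts of skin RNA from 5 animals. With 1 pool per genotype there was no replicate error over animals, no test was possible, and no p-value is given. The labels name no driver or promoter for the deletion, which part of Pla2g4e it removes, nor hours since birth.

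Imprinted genes are transcribed mainly from the copy inherited from one parent, according to methylation marks laid down in the germ line. Many of them act on growth before and shortly after birth: as a rule, genes active on the paternal copy favour growth and genes active on the maternal copy restrain it. In mouse organs, a network that includes these genes is active in the fetus and is turned down during juvenile life, as growth slows.

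Both arrays had similar overall brightness. The median spot signal was 241 in the knockout pool and 249 in the wild-type pool. Probes well above background made up 80.8% of the knockout array and 78.0% of the wild-type array. The 2 arrays lay on 1 slide in different positions, so position and genotype cannot be told apart. Pla2g4e itself read 320 in the knockout pool and 662 in the wild-type pool on its brightest probe, a scaled log2 difference of -0.96 (scanner error 0.20). By that probe it was lower but still detected in the knockout pool. A second, dim probe read 11.7 in the knockout pool and 10.6 in the wild-type pool, where it was not well above background. Whether either probe lies in the deleted part is not given. The pools also differed in their make-up by sex, so sex and genotype cannot be told apart either. The Y-linked Ddx3y read 2.36 in the knockout pool, where it was not well above background, and 2893 in the wild-type pool. Xist, the RNA of the inactive X chromosome, read 2889 in the knockout pool and 796 in the wild-type pool. Xist was well above background in both pools, so the wild-type pool need not be all male. The keratins that define skin were bright in both, with Krt5 at 224586 in the knockout pool and 247197 in the wild-type pool, and Krt10 at 241231 in the knockout pool and 232907 in the wild-type pool.

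H19 and Meg3 are long non-coding RNAs, and what the array reads of them is fixed by short probes. Probe sequences of 60 bases are shown here for both, 5′ to 3′ as the scanner file gives them, because probes of the same gene gave different values. The first of each gene represents it below; no base is set in capitals, since no motif was searched. Positions are on mm9.
H19, A_55_P1961127, chr7:149761492-149761551, minus strand: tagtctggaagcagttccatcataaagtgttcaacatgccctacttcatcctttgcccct
H19, A_55_P1961125, chr7:149762417-149762476, minus strand: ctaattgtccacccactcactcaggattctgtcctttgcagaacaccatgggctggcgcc
Meg3, A_51_P455997, chr12:110809678-110809737, plus strand: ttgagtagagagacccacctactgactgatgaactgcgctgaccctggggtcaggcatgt
Meg3, A_52_P196568, chr12:110799558-110799617, plus strand: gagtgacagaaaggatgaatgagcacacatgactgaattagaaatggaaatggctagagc

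The members are also known for CpG-rich control regions, to which the promoter windows given here were not matched. RefSeq promoters of the assembly GRCm38.p6, each 250 bases before to 50 bases after a start site, were available for 7 of the 9 genes, in 11 windows (H19 and Cdkn1c were not matched). The windows held 1 to 45 CpG dinucleotides (the letters CG, which read the same on both strands), with a median of 13 against 7 over all 32851 promoters in the table. A number of 13 was reached by 37.9% of promoters. Their GC content had a median of 59.3%, against 52.7% over all promoters, and 10 of the 11 held at least the median CpG number. The windows of Grb10 and Mest are shown, with each CG in capitals, because these genes had the highest and the lowest difference between the pools; they were picked after the values were seen. Where a gene had several windows, one with its highest CpG number is shown. The Grb10 window held 45 CpGs, a number reached by 1.93% of promoters, and its other window 9, reached by 45.8%. The Mest window held 17, reached by 31.4%, as did a window shifted by a few bases, and the remaining Mest window 8, reached by 48.7%. The arrays did not measure methylation or which parental copy was transcribed.
Grb10, chr11:12037371-12037670, minus strand: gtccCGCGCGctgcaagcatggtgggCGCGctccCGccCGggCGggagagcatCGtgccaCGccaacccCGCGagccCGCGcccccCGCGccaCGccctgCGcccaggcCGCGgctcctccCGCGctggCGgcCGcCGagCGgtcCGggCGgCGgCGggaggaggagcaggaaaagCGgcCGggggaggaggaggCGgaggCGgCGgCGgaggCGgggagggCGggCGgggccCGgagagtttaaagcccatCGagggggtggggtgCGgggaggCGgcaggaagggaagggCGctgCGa
Mest, chr6:30737800-30738099, plus strand: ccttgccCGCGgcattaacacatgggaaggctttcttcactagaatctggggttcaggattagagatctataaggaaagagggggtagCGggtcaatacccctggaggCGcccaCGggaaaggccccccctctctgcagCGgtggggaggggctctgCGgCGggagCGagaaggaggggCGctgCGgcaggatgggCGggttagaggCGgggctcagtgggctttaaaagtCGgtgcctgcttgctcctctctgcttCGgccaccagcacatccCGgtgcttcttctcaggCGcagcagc

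Signals of the members are given first as read by the scanner (linear intensity, unscaled); differences are on the log2 scale after division of each array by its 75th percentile, knockout minus wild type. A gene is represented by its brightest probe well above background on both arrays. The scanner's own error model gave each member's difference an error of 0.20 log2, which covers the spots and leaves out the animals. In RNA from whole skin, fewer cells of a type and less RNA per cell cannot be told apart.

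RNA of 8 of the 9 members was higher in the knockout pool, by small amounts, and the ninth, Mest, was at about the same level in both. The share of all measured genes above 0 was 51.8%. Grb10 alone was past 1.5-fold (0.58 log2) in the direction of higher, against 6.73% of all measured genes, and 0 members were past it in the direction of lower, against 4.47%. At 1.2-fold, a size chosen after the values were seen, 7 of the 9 were higher, against 19.7% of measured genes. The median difference of the members was 0.35, that of all measured genes 0.01.

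**Figure D1:**
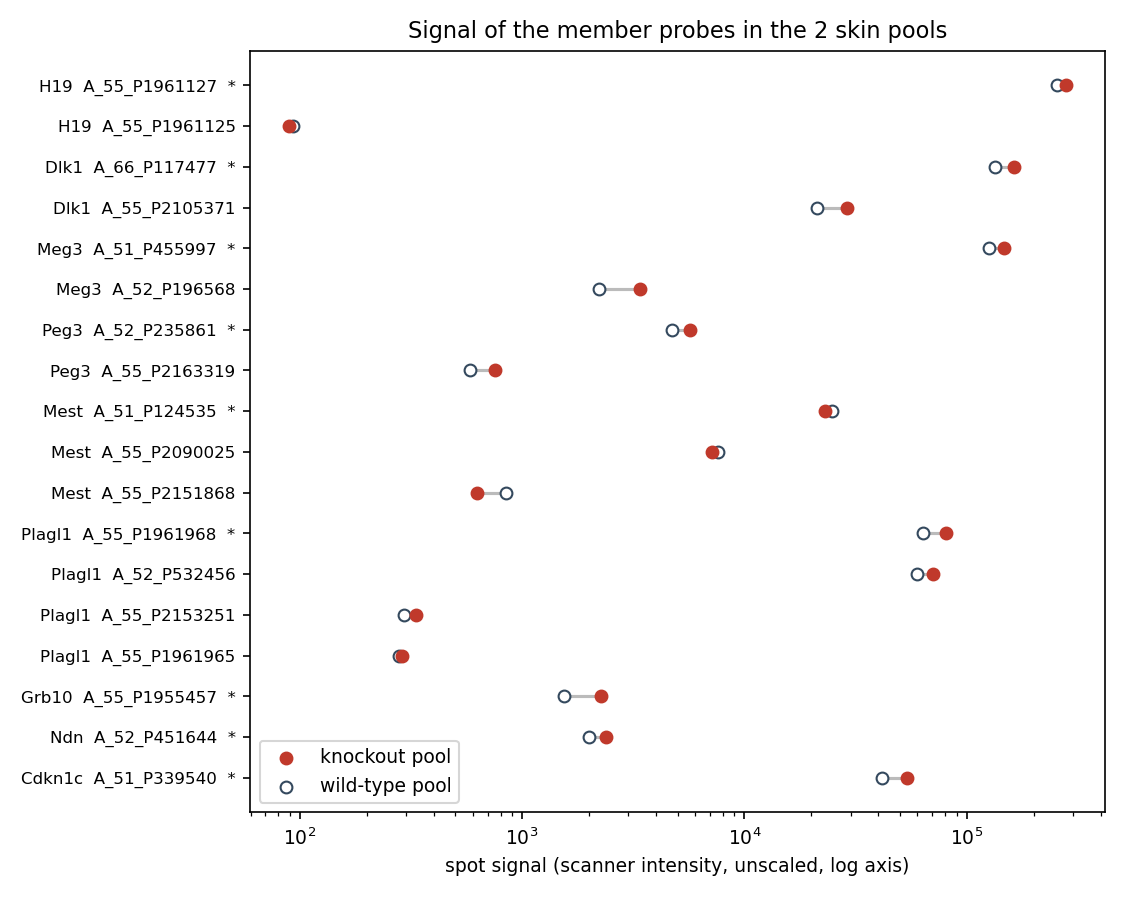
Signal of 18 of the 19 probes of the 9 members, on a log axis of unscaled scanner intensity; filled points are the knockout pool, open points the wild-type pool, and an asterisk marks the probe that represents its gene. Most knockout points lie to the right of their wild-type points, by little; those of Mest and of the dim H19 probe lie to the left, before scaling.

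Dlk1 and Meg3 lie in the same imprinted domain on chromosome 12 and are expressed from opposite parental copies. Dlk1, a transmembrane relative of the Notch ligands that holds back the differentiation of fat precursors, read 163568 in the knockout pool and 133816 in the wild-type pool, a difference of 0.38 or 1.30-fold. Its second probe read 29063 in the knockout pool and 21258 in the wild-type pool (0.54). Both probes were thus higher in the knockout pool, the dimmer one by more. Meg3, a maternally expressed non-coding RNA formerly called Gtl2, read 146486 in the knockout pool and 126175 in the wild-type pool with its brightest probe (0.31, 1.24-fold). The other Meg3 probe shown above read 3401 in the knockout pool and 2211 in the wild-type pool (0.71). It was made for another Meg3 transcript (NR_003633) and was past 1.5-fold at 1.64-fold. The size for Meg3 thus depended on the probe, while the direction was the same in both.

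H19 and Cdkn1c are maternally expressed genes at the distal end of chromosome 7, in neighbouring domains. H19, a non-coding RNA that restrains growth, read 279213 in the knockout pool and 255543 in the wild-type pool, a difference of 0.22 or 1.16-fold. Its second probe, for an accession not in the RefSeq table, read 89.5 in the knockout pool and 92.8 in the wild-type pool, which is 0.04 after scaling. The H19 difference was 1.07 times its scanner error, the smallest such ratio among the 8 genes above 0. Cdkn1c, which encodes the cyclin-dependent kinase inhibitor p57, a brake on cell division, read 53707 in the knockout pool and 41596 in the wild-type pool (chr7:150644753-150644812, mm9). That is 0.46 or 1.38-fold, 2.25 times the scanner error, and above 89.9% of all measured genes.

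Grb10, an adaptor protein that binds the insulin and insulin-like growth factor receptors and dampens their signal, had the largest difference of the members. It read 2257 in the knockout pool and 1536 in the wild-type pool on its only probe (chr11:11833165-11833224, mm9), which is 0.65 or 1.57-fold. The difference was 3.17 times the scanner error and above 94.4% of all measured genes. The central 95% of all measured genes ran from -0.76 to 0.95, and all 9 members lay within it.

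Plagl1, Peg3 and Ndn are paternally expressed and encode nuclear proteins. Plagl1, a zinc finger transcription factor known in mouse to act on other imprinted genes, read 80838 in the knockout pool and 63618 in the wild-type pool (0.44, 1.35-fold). A second bright probe read 70525 in the knockout pool and 59640 in the wild-type pool (0.33). Of the 2 dim Plagl1 probes, one read 335 in the knockout pool and 294 in the wild-type pool (0.28) and the other 288 in the knockout pool and 278 in the wild-type pool (0.14). All 4 probes were thus higher in the knockout pool. Peg3, a large zinc finger protein, read 5677 in the knockout pool and 4735 in the wild-type pool (0.35, 1.28-fold), and its second probe 752 in the knockout pool and 584 in the wild-type pool (0.46). Ndn, which encodes necdin, a growth suppressor of the MAGE family best known in neurons, read 2395 in the knockout pool and 2003 in the wild-type pool on its only probe (0.35, 1.27-fold). These 3 genes, from different chromosomes or distant parts of one, differed by 0.35 to 0.44.

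Mest, which encodes a hydrolase-like membrane protein linked to growth and to the expansion of fat cells, stood apart from the other 8. Its representative probe is printed 10 times on the array, so its spread over spots can be seen. The spots read 21729 to 24231 in the knockout pool (median 22758) and 22424 to 25821 in the wild-type pool (median 25001), ranges that overlap. After scaling, the spots differed by -0.08 to 0.05 with a mean of -0.02 (SD 0.051 over 10 spots of the same pools). The other Mest probes read 7169 in the knockout pool and 7586 in the wild-type pool (0.01) for the one, and for the other 626 in the knockout pool and 844 in the wild-type pool (-0.34). The 266 probes printed 10 times had a median SD of 0.035 over spots, well under the scanner's error of 0.20.

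**Figure D2:**
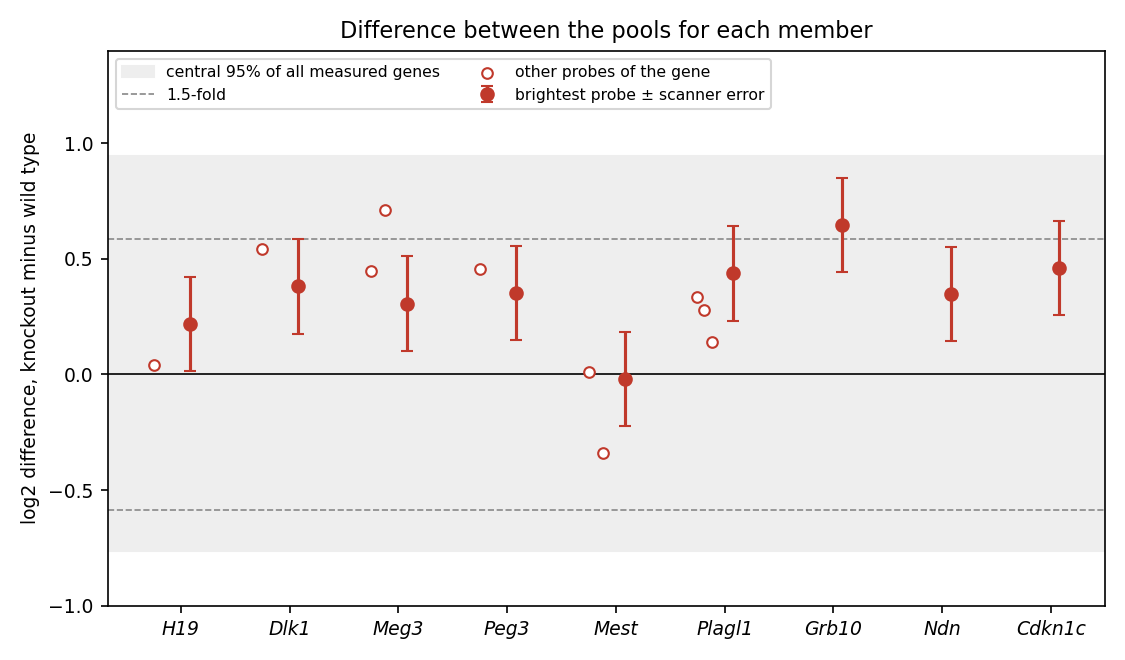
Log2 difference, knockout minus wild type, for each member: filled points are the representative probe with the scanner error as bars, open points the gene's other probes, dashed lines 1.5-fold and the grey band the central 95% of all measured genes. Grb10 at 0.65 alone passes 1.5-fold with its representative probe, and Mest at -0.02 lies at 0.

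Members read from the maternal and from the paternal copy had similar medians. The 4 maternally expressed members (H19, Meg3, Grb10, Cdkn1c) had a median of 0.38 and the 5 paternally expressed ones (Dlk1, Peg3, Mest, Plagl1, Ndn) a median of 0.35. Since 7 of the 9 members are among the 4827 brightest measured genes, where differences were narrower (central 95% from -0.48 to 0.68, median 0.02), they were also placed within it, a comparison added after the values were seen. There, 13.5% of genes were past 1.2-fold in the direction of higher, and among the 7 bright members Dlk1, Meg3, Peg3, Plagl1 and Cdkn1c were. Cdkn1c lay above 94.3% of the bright genes, Plagl1 above 93.7%, Dlk1 above 92.3%, Peg3 above 91.2%, Meg3 above 89.1%, H19 above 83.1% and Mest above 41.7%.

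Probes within 200 kb of a member probe on mm9 were listed next, also after the values were seen, to show whether neighbours differed in the same way. Over all regions, 16 of 18 probes of other listed imprinted genes were above 0, against 51.8% of all measured genes, with a median of 0.47. At least 1.5-fold higher were 7, against 6.73% of all measured genes. Counted by gene over whole domains, which adds genes beyond 200 kb such as Dio3, 11 of 17 were above 0 with a median of 0.18. By gene, 5 of the 17 were at least 1.5-fold higher. Of the 44 other probes, 24 were above 0, with a median of 0.11. Among them 8 were at least 1.5-fold higher (6.73% of all measured genes) and 2 at least 1.5-fold lower (4.47%). The other probes include transcripts within the members' domains, such as Igf2os, Peg3os and 1110006E14Rik, and so are not a set of non-imprinted genes. Probes of a region share a transcript or a gene in several cases and are not independent of each other. The shares of all measured genes count 1 probe per gene, and no share over all probes was taken.

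In the Dlk1-Meg3 region all 13 probes were above 0: 5 of members, 4 of other listed imprinted genes and 4 others. The Ndn region, with 1 member probe and 5 of other imprinted genes, was the other region with every probe above 0. Downstream of Dlk1 on the plus strand, 10 probes over Meg3 and the non-coding RNAs after it differed by 0.27 to 1.03, with a median of 0.73. Of these 10 probes, which include several each of Meg3, Mirg and 1110006E14Rik, 6 were at least 1.5-fold higher. The share of all measured genes, counted by 1 probe each, was 6.73%, so the units are unlike. Mirg, a host transcript of microRNAs at the far end of this run, had 3 probes. They read 29968 in the knockout pool and 18446 in the wild-type pool (0.79), 17115 in the knockout pool and 13070 in the wild-type pool (0.48), and on the dimmest probe 419 in the knockout pool and 219 in the wild-type pool (1.03). The unnamed transcript 1110006E14Rik had 2 probes with a difference of 0.80 each, one reading 13628 in the knockout pool and 8367 in the wild-type pool. Rtl1, a retrotransposon-derived gene read from the paternal copy on the minus strand (chr12:110828379-110828438), was dim at 116 in the knockout pool and 45.4 in the wild-type pool, and its difference of 1.45 was the largest of the other imprinted genes. Dio3, which encodes the deiodinase that inactivates thyroid hormone and lies further along the same domain (chr12:111518792-111518851), went the other way, at 24.0 in the knockout pool and 36.4 in the wild-type pool (-0.51).

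**Figure D3:**
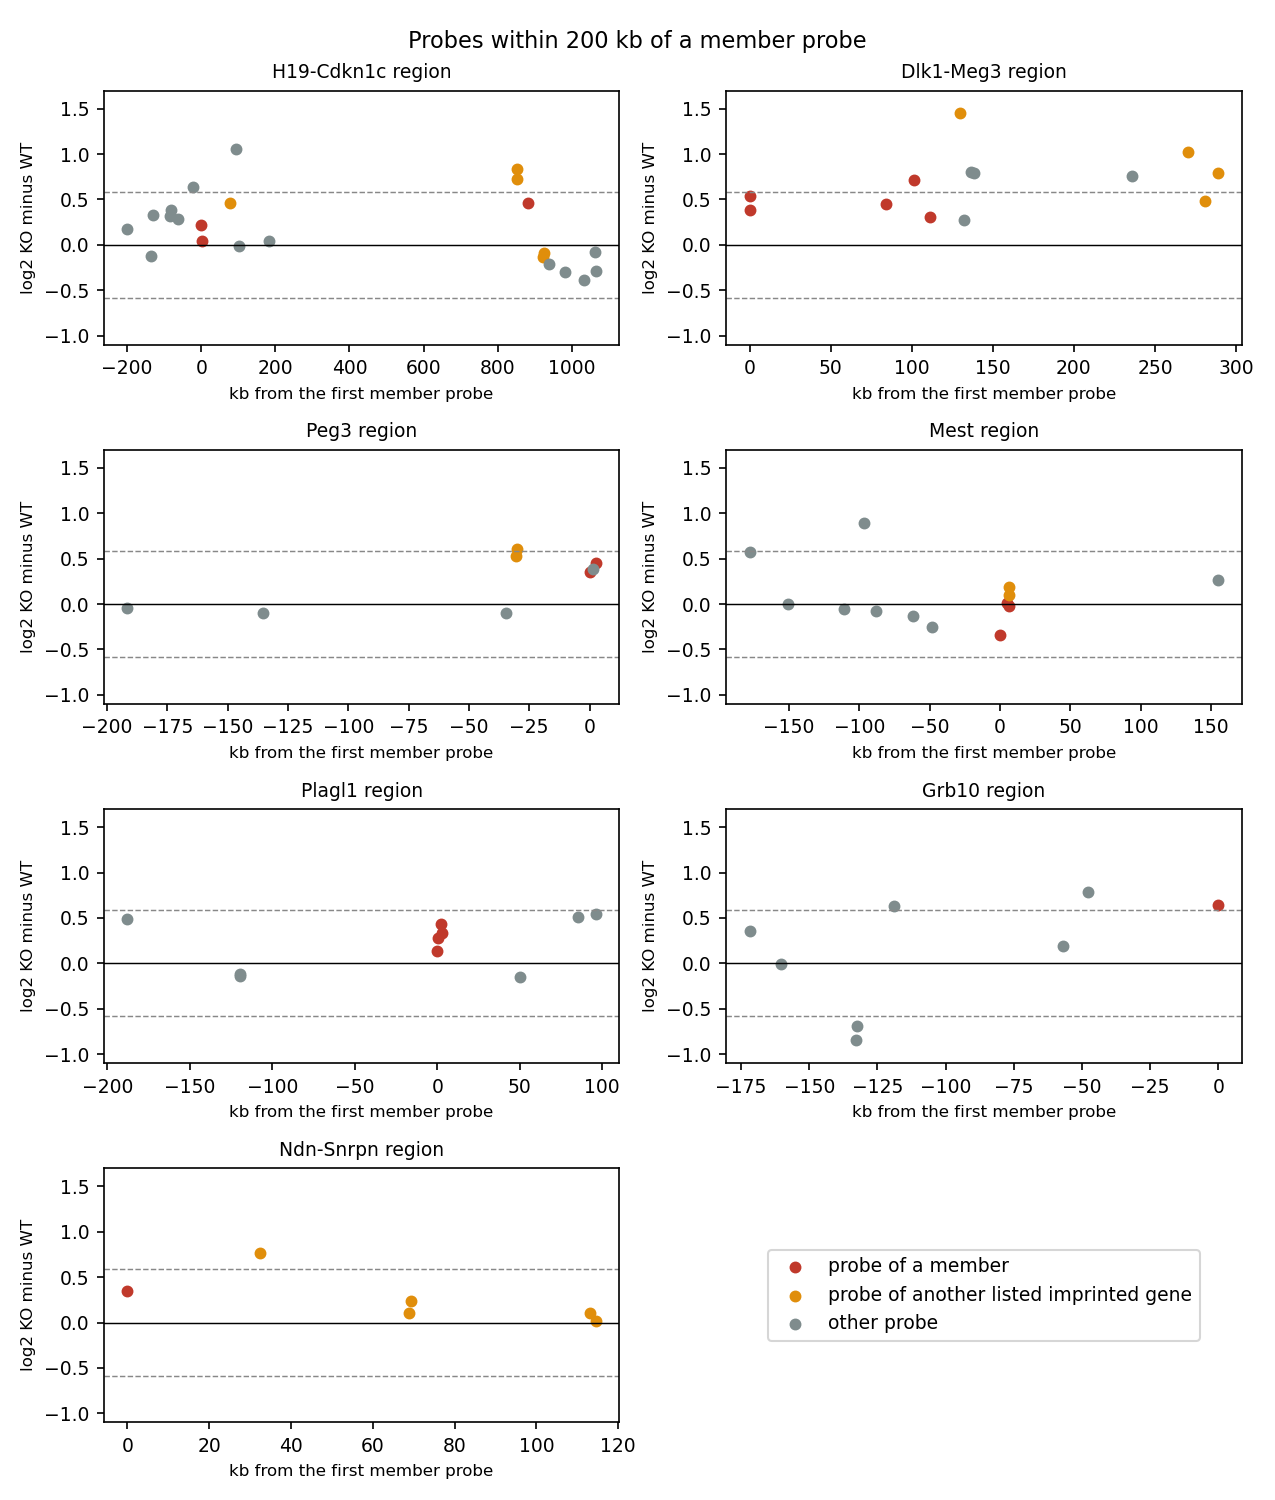
Log2 difference, knockout minus wild type, of the probes within 200 kb of a member probe, against distance in kb from the first member probe of each region; red points are members, orange other listed imprinted genes, grey other probes, and dashed lines mark 1.5-fold. In the Dlk1-Meg3 panel all 13 points lie above 0, as do all points of the Ndn-Snrpn panel, while the other panels hold points on both sides.

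Around H19, the paternally expressed growth factor Igf2 read 9455 in the knockout pool and 7294 in the wild-type pool (0.47). Igf2os, on the opposite strand to Igf2, read 6324 in the knockout pool and 3238 in the wild-type pool (1.06), and Nctc1, an RNA beyond H19, read 473 in the knockout pool and 325 in the wild-type pool (0.64). The muscle troponins Tnnt3 (0.29) and Tnni2 (0.33) lie on the same side. Near Cdkn1c, the potassium channel gene Kcnq1 was higher by 0.72 and 0.83 on its 2 probes. These largely overlap in position and are nearly the same measurement. By contrast, the imprinted Slc22a18 (-0.13) and Phlda2 (-0.09) and the neighbours Nap1l4 (-0.21) and Cars (-0.30) were slightly below 0. Members and imprinted neighbours on this part of chromosome 7 were therefore not uniform.

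In the other regions, Zim1, beside Peg3, was higher by 0.53 and 0.61 on its 2 probes and Peg3os by 0.39. Magel2, a MAGE family gene beside Ndn, read 738 in the knockout pool and 461 in the wild-type pool (0.77), whereas Mkrn3 (0.11 and 0.24) and Peg12 (0.10 and 0.02) differed by less. Copg2, which overlaps the end of Mest, differed by 0.10 and 0.18. Beside Grb10, the nearest probe, of the unnamed transcript 1700042O10Rik, was higher by 0.79, and Ddc, an enzyme of amine synthesis, differed by 0.64 and 0.19. Further off, the DNA repair gene Fignl1 was lower on both probes (-0.85 and -0.69). Neighbours of Plagl1 ranged from -0.15 to 0.54.

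Other imprinted genes had a lower median difference than the members but a wider range, from -0.51 to 1.45 against -0.02 to 0.65. Of 36 listed, 34 were measured (Snurf and Rian were not), 22 were above 0, 7 were at least 1.5-fold higher (6.73% of all measured genes) and 0 at least 1.5-fold lower (4.47%). Their median was 0.13, against 0.35 for the members and 0.01 for all measured genes. The 7 were Rtl1 (1.45), Asb4 (0.90), Mirg (0.79), Magel2 (0.77), Kcnq1 (0.72), Zrsr1 (0.66) and Usp29 (0.61). A second, dimmer Asb4 probe read 78.5 in the knockout pool and 75.6 in the wild-type pool and differed by only 0.15. Of the 7 genes, 5 lie in a member's imprinted region, where 17 measured genes had a median of 0.18. The 17 outside had a median of 0.09 and gave Asb4 and Zrsr1. The 20 paternally expressed genes had a median of 0.13 and the 14 maternally expressed ones of 0.14. Among the 12 genes at or below 0 were, after Dio3, the neuronal proteolipid gene Nnat at 189 in the knockout pool and 279 in the wild-type pool (-0.47), and Snrpn (-0.19), whose 3 probes differed in sign. Further genes of the members' domains were Kcnq1ot1, the non-coding RNA of the Cdkn1c domain (-0.18), Ube3a (-0.28) and Klf14 (0.01).

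Non-imprinted relatives of the members had a median of 0.12 over 10 genes. Dlk2, the relative of Dlk1, was the highest at 3043 in the knockout pool and 2133 in the wild-type pool (0.60). It was the one gene past 1.5-fold, against 6.73% of all measured genes at least 1.5-fold higher. Cdkn1b, which encodes the inhibitor p27, differed by 0.44 and Cdkn1a, which encodes p21, by 0.12. Grb14, a relative of Grb10, was the lowest at -0.17.

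Signalling partners of the members had no common direction, with 7 of 16 above 0 and a median of -0.07. Irs2, the insulin receptor substrate, read 15748 in the knockout pool and 8459 in the wild-type pool (0.99). It was the one gene of the 16 at least 1.5-fold higher, against 6.73% of all measured genes. The receptors bound by Grb10 were both above 0, Insr at 0.51 and Igf1r at 0.39, as was Igf2r (0.39), itself imprinted and known to clear Igf2. On the side of the cell cycle machinery restrained by p57, cyclin E gene Ccne1 read 2179 in the knockout pool and 4240 in the wild-type pool (-0.87). It was the one gene of the 16 at least 1.5-fold lower, against 4.47% of all measured genes. The cyclin D gene Ccnd1 differed by -0.48.

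Genes of the fetal growth programme that are not imprinted were divided, with 8 of 14 above 0 and a median of 0.10. Only Mycn was past 1.5-fold: this growth-promoting transcription factor read 1920 in the knockout pool and 4646 in the wild-type pool (-1.18). The share of all measured genes at least 1.5-fold lower was 4.47%. The highest were the RNA-binding proteins Lin28b at 36.5 in the knockout pool and 27.6 in the wild-type pool (0.49) and Igf2bp1 (0.41), followed by the chromatin protein Hmga2 (0.39). With genes brighter than the median alone, the list's median was -0.23, so its direction depended on the dim genes.

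Other RNAs that change around birth were set beside the members. All 5 embryonic and perinatal muscle genes were above 0 (median 0.55), with the embryonic myosin Myh3 at 114561 in the knockout pool and 61459 in the wild-type pool (0.99), the cardiac actin Actc1 at 0.98 and the perinatal myosin Myh8 at 0.18. Of the 4 measured adult muscle genes, 3 were above 0 (median 0.26), from Myh2 at -0.40 to Myh1 at 0.54. The embryonic globin Hbb-y read 118 in the knockout pool and 31.5 in the wild-type pool (1.99) and Hbb-bh1 differed by -0.08, while the 3 adult globins differed by 0.49 (Hba-a1) to 0.64 (Hbb-b1). Past 1.5-fold, all in the direction of higher, were Myh3, Actc1, Hbb-y and Hbb-b1, and none of the 4 adult muscle genes. The share of all measured genes at least 1.5-fold higher was 6.73%. Myh8 at 0.18 and Myh4 at 0.05 were within the scanner error.

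**Figure D4:**
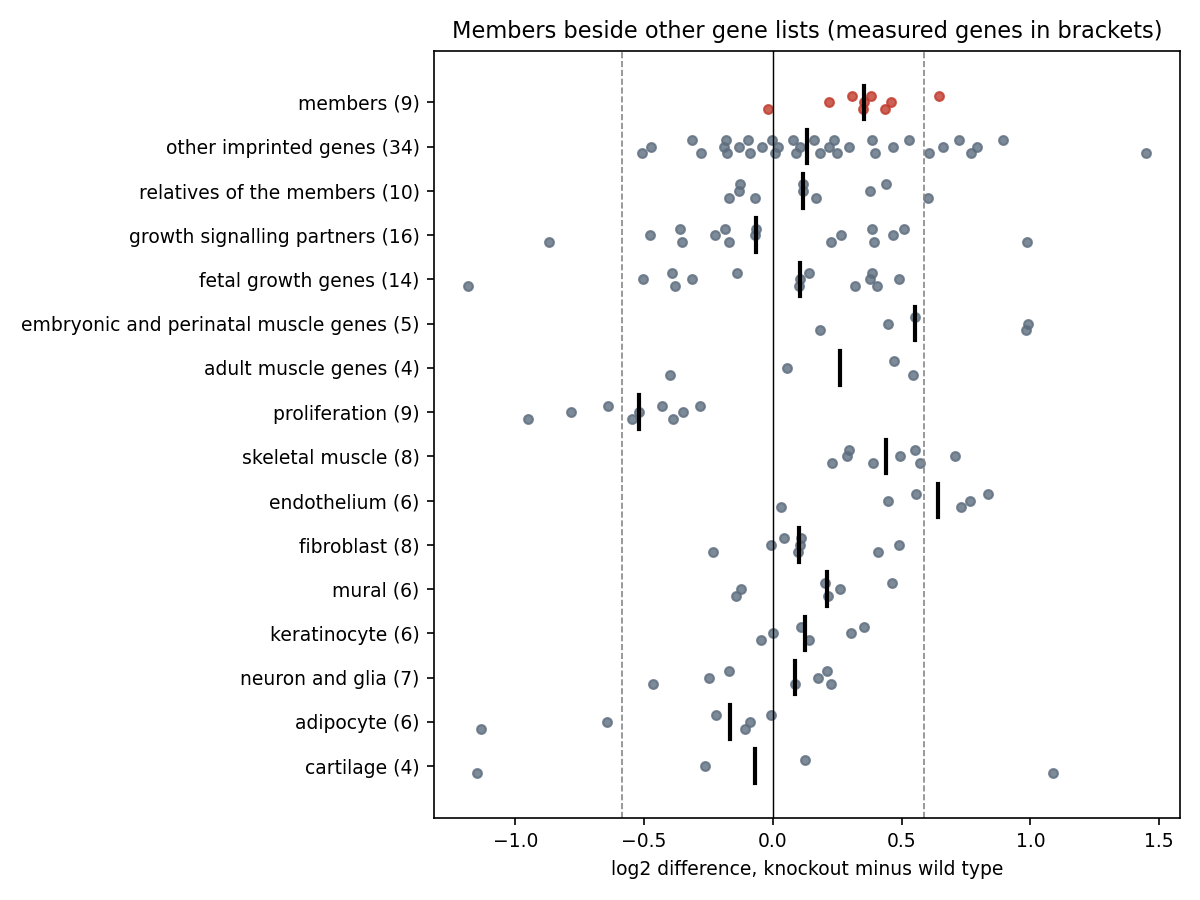
Log2 difference, knockout minus wild type, of each measured gene (points) and the median (bar) of the members and of 15 other gene lists; the solid line is 0 and dashed lines mark 1.5-fold. The members' median of 0.35 lies between those of endothelium (0.64) or skeletal muscle (0.44) and that of fibroblasts (0.10), and the proliferation genes all lie below 0.

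Markers of cell types that could carry the members' RNA differed between the pools as well. All 8 skeletal muscle markers were above 0 (median 0.44, from Acta1 at 0.23 to Myog at 0.71), and all 6 endothelial markers (median 0.64, from Kdr at 0.03 to Emcn at 0.84, with Emcn, Tie1 at 0.77 and Cdh5 at 0.73 past 1.5-fold). All 6 adipocyte markers were below 0 (median -0.17), with Adipoq at -0.64 and Plin1 at -1.13 past 1.5-fold and Lpl the highest at -0.01. The 8 fibroblast markers had a median of 0.10, from Lum at -0.23 to Pdgfra at 0.49, and the 6 keratinocyte markers a median of 0.13, from Krt5 at -0.05 to Col17a1 at 0.35. For the 6 mural markers the median was 0.21, from Cspg4 at -0.14 to Pdgfrb at 0.46. The 7 neuron and glia markers had a median of 0.09, from Tubb3 at -0.47 to Prph at 0.22, and the 4 cartilage markers one of -0.07. No fibroblast, keratinocyte, mural or neuron and glia marker was past 1.5-fold, while of the cartilage markers, all dim, Col9a1 was higher (1.09) and Col2a1 lower (-1.15). The part of these markers in the members' differences was not tested.

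Processes known to act with growth also differed. All 9 measured proliferation genes were below 0 (median -0.52), and 3 of them, Mcm2 (-0.95), Mcm5 (-0.79) and Mcm3 (-0.64), subunits of the replicative helicase, were at least 1.5-fold lower, while Ccnb1, a mitotic cyclin, was the nearest to 0 at -0.28. All 11 glucocorticoid-induced genes were above 0 (median 1.25), from Mt2 at 0.02 upwards. The 8 past 1.5-fold were Zbtb16 (2.96), Fkbp5 (2.03), Tsc22d3 (1.96), Per1 (1.91), Klf9 (1.64), Ddit4 (1.25), Errfi1 (0.96) and Sgk1 (0.91). The shares of all measured genes past this size were 4.47% for lower and 6.73% for higher. Whether these processes have a part in the members' differences was not tested. The sex of the pools and slide position differed along with genotype, so their part cannot be told apart from that of genotype.

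The members' values moved little with the processing. Over 9 other choices of scaling, background correction or probe choice, the 8 members above 0 remained above 0 and Mest remained below it. The lowest and highest values were 0.12 and 0.24 for H19, 0.28 and 0.46 for Dlk1, 0.22 and 0.49 for Meg3, and 0.60 and 0.65 for Grb10. Those of Mest were -0.12 and -0.01. Grb10 was past 1.5-fold in all of the 6 settings that could move its value; with 1 probe and a value table that rescales to the same value, the other 3 could not.

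**Figure D5:**
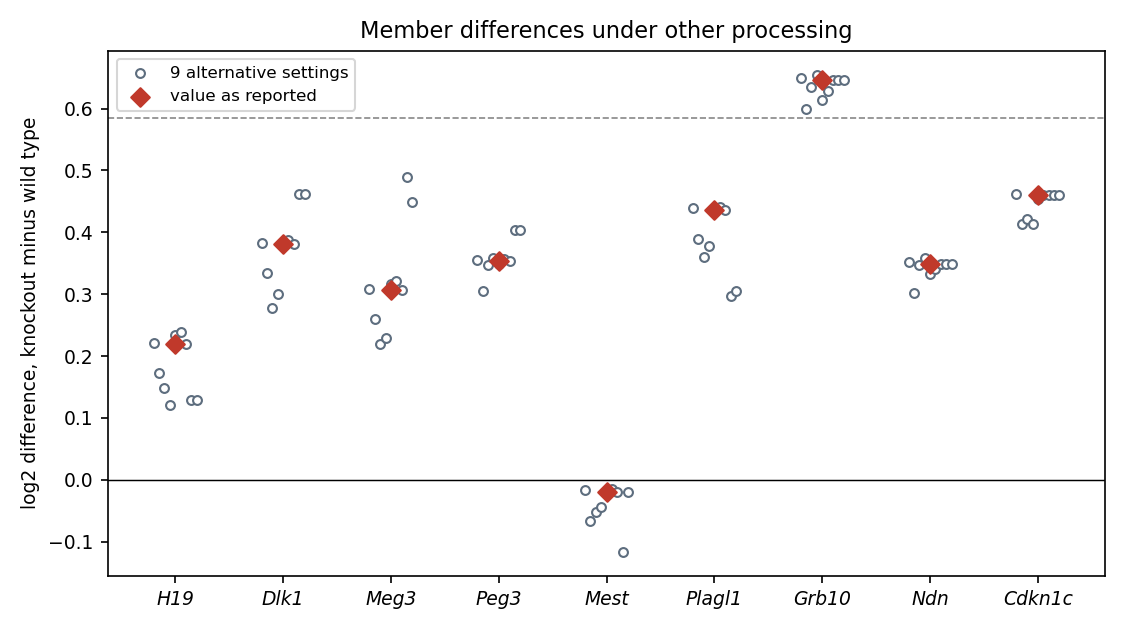
Log2 difference, knockout minus wild type, of each member as reported (diamonds) and under 9 other settings (open circles), with the dashed line at 1.5-fold. Each member's points keep to 1 side of 0, and Grb10, from 0.60 to 0.65, is the only one above the dashed line.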

How the data were processed

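Skin RNA from 1 pool of 5 animals per genotype was labelled with Cy3 (with Agilent's Low Input Quick Amp reagents, as the labels' protocols say) and hybridised to 2 Agilent 1-colour arrays of design 026655, with 60-base probes placed on mm9, per the file headers. The scanner images were read in Feature Extraction 11.5.1.1 (Agilent), per the submitters' processing notes. The deposited scanner files hold each spot's intensity, background-subtracted and spatially detrended, with its error, per the file headers. The deposited value table holds a linear ratio, which equalled the processed intensity over 1 constant per array (2273 in the knockout pool, 2406 in the wild-type pool). Its medians were 0.0969 in the knockout pool and 0.0946 in the wild-type pool; it is not centred by gene, and no source used here gives the origin of the constants. There were 0 columns of unknown sample.

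Here, log2 of the processed intensity was averaged over a probe's spots, less the array's 75th percentile. Of 43020 spots outside the controls, 234 outliers were left out; 0 were saturated. Of 39422 probes, 28320 were named by accession, 2209 by symbol and 174 by synonym through a RefSeq table of GRCm38.p6, 1622 kept the file's name (a rule tightened after values were seen) and 7097 had none. No exon or UTR is given, since no gene model of mm9 was used here. Genes were counted at 1.5-fold; the array number limits the precision. Alternatives covered scaling, quantile normalization, an intensity trend (lowess, statsmodels 0.14.6), normexp with offset 50 (limma 3.58.1 in R 4.3.3), detrending, the value table, probe choice, size and brightness. The sequence and signal of 1 Meg3 probe are not reported here, though it enters the counts. The arithmetic was tested on simulated data. Members and all 20 lists were chosen with earlier results of these data known, and cell type lists hold markers known from other work. Named were all members, each list's highest and lowest gene, genes past 1.5-fold where 8 or fewer, and genes of members' domains; further genes were picked after their values were seen, with the exception of the targeted gene.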

Additional observations from a re-analysis of the deposited data

How the results depend on the processing

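No paired analysis was possible because each genotype had 1 array and the result comes from no test; for the same reason no replicate could be left out. Under 9 settings, all 81 member values moved by less than the scanner error and kept their sign (the value table could not move any, nor probe choice those of Grb10, Ndn and Cdkn1c, which have 1 probe each), and the members' median ranged from 0.31 to 0.40. The median of the other imprinted genes ranged from 0.08 to 0.13, and that of all genes from -0.04 to 0.05. Under normexp background correction the share of all genes past 1.5-fold was 4.38% for higher and 2.19% for lower, against 6.73% for higher and 4.47% for lower as reported. Of 85 alternative counts and medians, 78 differed little and 7 moved; these come from the size or the genes counted. At 2-fold, 0 members and 1 other imprinted gene were higher, a size at which no share of all measured genes was taken. At 1.2-fold, chosen after seeing the data, 7 of 9 members and 12 of 34 other imprinted genes were higher, against 19.7% of all measured genes. Lower at that size were 0 members and 4 of the 34, against 3199 of the 19305 measured genes. Without genes of a member's region, also chosen after seeing the data, 2 of 17 other imprinted genes were at least 1.5-fold higher, against 6.73% of all measured genes. With bright genes alone the median of the fetal growth genes was -0.23, against 0.10 with all. The dim genes left out, Lin28a, Lin28b, Plag1 and Trim71, were all above 0. The scanner error of 0.20 is of the size of the members' differences, and no value speaks for the spread between animals.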

Other observations

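Probes of the same member differed in size, with no common order by brightness. For Meg3 the dimmest probe differed by 0.71 and the brightest by 0.31, and for Dlk1 the dimmer by 0.54 and the brighter by 0.38. For Plagl1 the order was the other way, with 0.14 on the dimmest probe and 0.44 on the brightest. The ratio of difference to scanner error was above 1 in size for all members other than Mest, from 1.07 for H19 to 3.17 for Grb10, and -0.093 for Mest.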
